A study of Rattus norvegicus with 46 samples.

Results

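The genes described here are those of the cytosolic ribosome, the particle that translates messenger RNA into protein. Members were taken by symbol. A member is a gene whose probe set carries 1 symbol in the platform table, that symbol being Rpl or Rps followed by a digit, or Rplp0, Rplp1, Rplp2 or Rpsa, with the S6 kinases (Rps6k) left out. The rule gave 50 probe sets for 44 genes, of 10411 genes with a probe set of 1 symbol and 15866 probe sets without controls, and each gene was read from the probe set with its highest mean. Of the 44 genes, 30 carry a symbol of the large subunit (Rpl) and 14 a symbol of the small subunit (Rps). Members are counted by subunit on this symbol alone, paralogues such as Rpl7l1 included. A filter on dim probe sets, set over the whole table, passed 40 of them, 28 of the large and 12 of the small subunit, among 11106 probe sets tested. A further 34 ribosomal probe sets carry several symbols and are used below only as an unnamed side group. Rplp1, Rplp2, Rps18, Rps27 and Rpl22l1 were not analysed here.

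A ribosome is built from a small subunit, which holds the mRNA and the decoding site, and a large subunit, which forms the peptide bond and holds the tunnel through which the new chain leaves. Each protein is needed in about the same number of copies, and the mRNAs of these proteins begin with a tract of pyrimidines (the 5′ terminal oligopyrimidine, or TOP, tract) through which the mTOR kinase pathway controls their translation together. In brain tissue ribosomal protein mRNAs are abundant in neurons and glia alike, and several of them serve as reference genes in quantitative PCR.

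The measurements come from the frontal lobe of male F344 rats, 11 to 12 weeks old, killed 96 hours after vehicle or 1 dose of chlorpyrifos. Chlorpyrifos is an organophosphate, and its oxon metabolite blocks acetylcholinesterase. The labels read here name no route of dosing. About 30 mg of tissue from each animal gave RNA for 1 Affymetrix array, in 3 separate experiments that each had vehicle rats of their own. Experiment A held 3 vehicle rats, with 3, 5 and 3 rats dosed at 1, 10 and 50 mg/kg. Experiment B held 4 vehicle rats, with 3, 1 and 3 rats dosed at 0.5, 5 and 30 mg/kg. Experiment C held 3 vehicle rats, with 4, 3 and 4 rats dosed at 1, 5 and 10 mg/kg. These counts are of rats on the 39 of 46 arrays whose probe sets stand in a shared order. In the other 7 arrays the correlation with these 39 lay between -0.0068 and 0.0025, so they were left out. Among those left out are all arrays of a 30 mg/kg group of experiment C, so 30 mg/kg was read in experiment B only.

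Some arrays stand apart and touch the results below. The beta-actin 3′/5′ ratio, a sign of RNA length on the array, was 4.72 in 1 mg/kg animal 1 of experiment C and 1.23 to 2.15 in the other 38 arrays. The 5 mg/kg array of experiment B had a trimmed mean intensity of 205.2, against 500 within 1 unit in 44 of the 46 arrays. Both are kept in the results. In experiment C, 3 arrays (1 of vehicle, 2 of 10 mg/kg) carry a label of first repeat without saying what was repeated. A second description line of the experiment B vehicle arrays names 1 mg/kg, against their title and source. Of the marker lists for the labelled tissue, 14 of 15 neuron, 11 of 12 astrocyte and 10 of 14 oligodendrocyte markers passed the filter. In pieces of bulk tissue, fewer cells of a type and less RNA per cell cannot be told apart.

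The sequence around the transcription start is shown first, because many of these genes share a feature there. Whether it goes with their shared movement from array to array (below) was not tested. RefSeq promoters of build GRCr8 were matched to 39 of the 44 members, 37 by identifier and 2 by symbol alone. Each line gives 30 bases, 5′ to 3′ on the gene's strand. The eleventh base is the annotated start, so the window holds the last 10 bases before the gene and the first 20 bases of it. Capitals mark the part of the longest run of C and T near the start that lies in the window. Rpl34, Rpl19 and Rps23 are shown because they followed the other members most closely. Rpl37a, Rpl11, Rpl18, Rps6 and Rps16 are shown because they differed between vehicle groups. Rpl3 and Rpl7l1 are shown because they followed the others least.
Rpl34: TCCTTTTCCTCTTCCggggacggtgcttag
Rpl19: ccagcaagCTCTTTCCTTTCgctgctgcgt
Rps23: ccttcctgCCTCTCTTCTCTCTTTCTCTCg
Rpl37a: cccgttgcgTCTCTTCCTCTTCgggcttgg
Rpl11: CTTgaagcttgtttggtgctggggagcatc
Rpl18: aCCTggtctagcaggaggcgccatcatggt
Rps6: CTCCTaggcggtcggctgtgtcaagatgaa
Rps16: aaaatcggtcggggtggCCCCaagctttcc
Rpl3: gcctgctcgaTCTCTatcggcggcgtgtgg
Rpl7l1: cagatgcattgtgggaagCCTTTaactcgt
These windows lie at chr2:221962264-221962293 on the minus strand (Rpl34), chr10:83519054-83519083 on the plus strand (Rpl19), chr2:23814507-23814536 on the plus strand (Rps23) and chr9:81748081-81748110 on the plus strand (Rpl37a). Those of Rpl11 and Rps6 lie on the minus strand of the same chromosome, at chr5:153560783-153560812 and chr5:106420521-106420550. Those of Rpl18 and Rps16 lie on the plus strand at chr1:105325260-105325289 and chr1:92770648-92770677. Rpl3 is at chr7:113507971-113508000 on the minus strand and Rpl7l1 at chr9:21695708-21695737 on the plus strand.

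The run of C and T is 20 bases long in Rpl34, 12 in Rpl19, 21 in Rps23 and 13 in Rpl37a. It is 3 bases long in Rpl11 and in Rpl18, 4 in Rps16 and 5 in Rpl3 and Rpl7l1. The genes shown were picked by likeness or by calls, and other members paired run length and likeness otherwise. Rpl7a, with a run of 24 bases, had a median correlation of 0.396 with the other members, and Rpl4, with 14 bases, had 0.263. Rpl12, with 7 bases, had 0.598. A run of at least 8 bases of C and T that reached within 10 bases of the annotated start was found in 25 of the 39 members (64.1%), in 13% of 21812 other protein-coding genes and in 13.2% of all 33469 promoters in the table. The median longest run near the start was 9 bases in the members and 4 in the other genes. The strict form of the tract, a C at the annotated start followed by 4 bases of C or T, was found in 11 members (28.2%) and in 2.63% of all promoters. Annotated starts can be off by some bases, so these counts describe the annotation and not measured transcript ends.

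Shorter motifs were searched in the 30 bases on either side of the start. CTTTC was found on the gene's strand in 19 members (48.7%) and in 7.69% of all promoters, and on the other strand in 0 members and in 7.7% of all promoters. CTCTT was found on the gene's strand in 18 members (46.2%) and in 8.55% of all promoters, and on the other strand in 0 members and 8.06% of all promoters. CTTCC, which holds the core of ETS factor sites (GGAA) as read on the opposite strand, was found in 14 members (35.9%) against 12.1% of all promoters. On the other strand it was found in 6 members (15.4%) against 13% of all promoters. The motifs overlap each other, and a match is a description of these letters only.

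Ribosomal protein genes were among the brightest probe sets of the arrays. Of the 40 tested members, 38 had mean intensities between 2207 and 10420, at the 94.8 to 99.9 percentile of all probe sets. The exceptions were Rpl7l1, a paralogue of Rpl7 that works in ribosome assembly, with a mean intensity of 609.1 (percentile 74.1), and Rpl39, a small protein of the tunnel wall, with 463.7 (percentile 66.4). The 4 members under the filter were Rps27l, a paralogue of Rps27 that p53 induces, with a mean log2 intensity of 6.50, Rpl30 with 5.96, Rps4y2, a copy of Rps4, with 5.81, and Rpl3l, the paralogue of Rpl3 known from heart and skeletal muscle, with 3.99. Intensities of different probe sets depend on their probes, so the percentiles describe signal and no gene's transcript level is set against another's. Paralogues and processed pseudogenes can share probe sequence, and their signals cannot be told apart here.

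Where a gene had several probe sets, they did not always move together. Rpl7, a protein of the large subunit, was read from a probe set of mean log2 11.98, which differed from vehicle by 0.13 (log2) at 50 mg/kg. A dimmer probe set of the same gene, of mean log2 7.61, differed by 1.00, and after group means were removed the pair correlated at r = 0.02 over the 39 arrays. The corresponding r was -0.41 for the pair of Rpl7l1. For Rpsa, the protein at the mRNA exit side of the small subunit that is also known as the laminin receptor, r was 0.37 and 0.18 with its dimmer probe sets. The dimmer probe sets of Rpl14 and Rps24 lay under the filter.

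Replicate animals gave close values. The SD within groups had a median of 0.136 log2 units over the 40 members (range 0.078 to 0.389), 0.205 over all 11106 probe sets and 0.133 over the 484 probe sets at or above the lower quartile of the members' mean intensity. Rpl6 (SD 0.078), Rps3a (0.0888) and Rpl19 (0.0893) varied least. Rpl6 is a large subunit protein, Rps3a lies on the mRNA exit side of the small subunit, and Rpl19 lies near the tunnel exit and is used as a reference gene. Rpl37a (SD 0.389), a zinc finger protein of the large subunit, varied most, ahead of Rps15 (0.229), which lies near the decoding centre, and Rps28 (0.214), which lies at the mRNA exit.

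**Figure D1:**
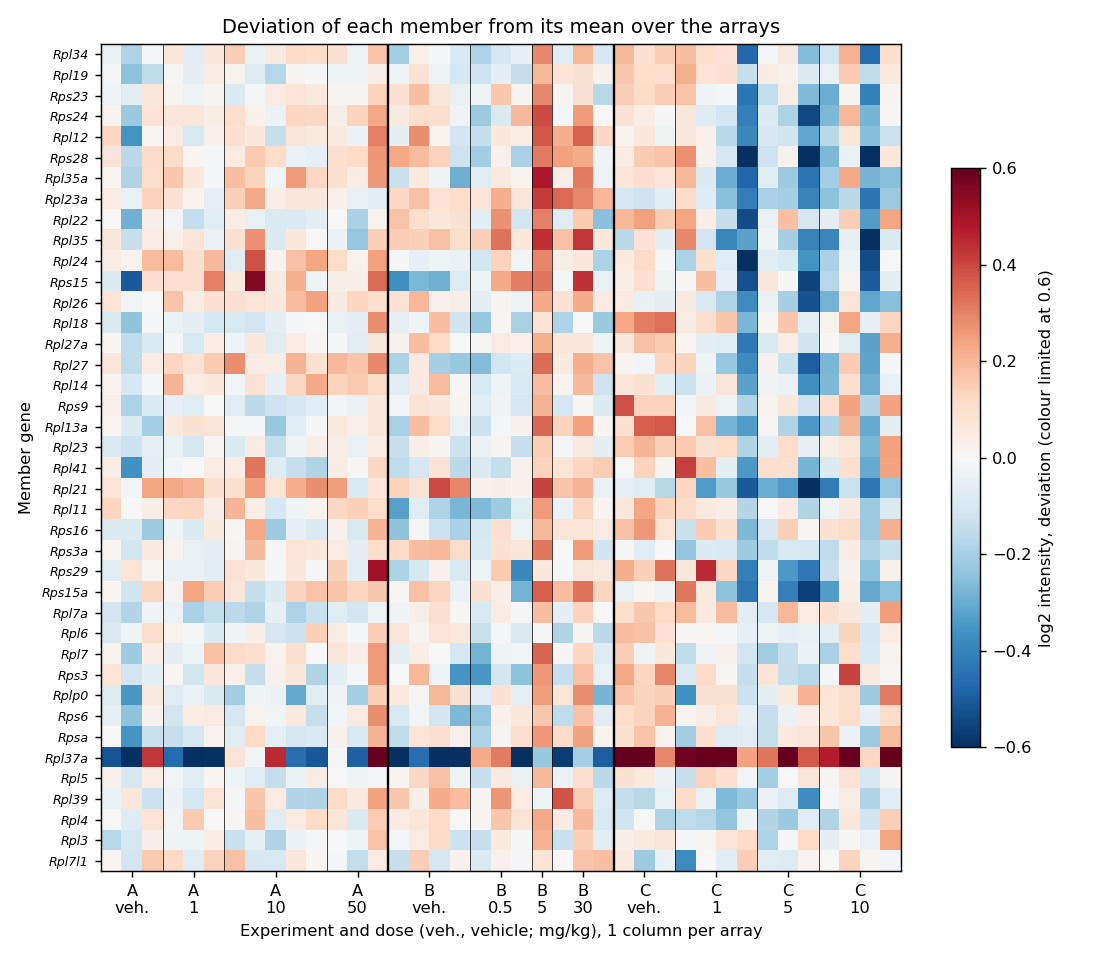
Deviation of each of the 40 tested ribosomal protein genes from its own mean over the 39 arrays (log2 intensity, colour), with 1 line per gene, from the most to the least like the others, and 1 column per array (red above the mean, blue below), ordered by experiment and dose in mg/kg. Whole columns tend to share a colour, such as those of animal 4 at 1 mg/kg and animal 3 at 10 mg/kg in experiment C, where 3 of 40 members lay above their mean, and 30 mg/kg animal 3 of experiment B, where 39 did.

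The first question is whether a dose of chlorpyrifos moved these genes once the 3 experiments were put together. In the model with experiment and dose as terms, 0 of 40 members passed an adjusted p of 0.05 at any dose, over the trend with dose or in the test for a change at any dose (limma, Benjamini-Hochberg over all probe sets tested). In the same model the share of all probe sets called was 0% at 0.5, 1, 5, 10 and 30 mg/kg, for the trend and for any dose, and 0.018% at 50 mg/kg. At an unadjusted p under 0.05 there were 5 members at 0.5 mg/kg (7.62% of all probe sets), 0 at 1 mg/kg (2.54%), 1 at 5 mg/kg (2.48%), 0 at 10 mg/kg (2.68%), 1 at 30 mg/kg (9.25%) and 0 at 50 mg/kg (7.99%). Over the trend with dose there were 2 members (7.66%) and for any dose 1 member (6.19%).

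In the pooled model the intervals bounded the differences of most members. This model gives each dose a difference shared by all experiments, so the intervals do not bound differences within an experiment. Rps29 at 5 mg/kg had a pooled interval of -0.475 to 0.0009, and its difference within experiment C was -0.497. The 95% interval of the difference from vehicle lay within 0.5 log2 units (1.41-fold) either way for 36 of 40 members at 0.5 mg/kg, 39 at 1 mg/kg, 39 at 5 mg/kg, 40 at 10 mg/kg, 38 at 30 mg/kg and 38 at 50 mg/kg. The median margin on either side of the estimate was 0.149 at 10 mg/kg, where 9 dosed rats were used. It was 0.214 at 0.5 and at 30 mg/kg, where 3 were used. Rpl37a had the widest interval at each of these doses.

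In the pooled model the median differences over the members were small at 1 to 30 mg/kg. The members leaned lower at 0.5 mg/kg and higher at 50 mg/kg. The medians at 1, 5 and 10 mg/kg pool experiments that leaned opposite ways, as given below. At 1 mg/kg 20 members were higher than vehicle (48% of all probe sets) and 20 lower, with a median difference of -0.00093 (log2). At 5 mg/kg 20 were higher (50.1% of all probe sets) with a median of 0.0024. At 10 mg/kg 22 were lower (49.7%) with a median of -0.0062, and at 30 mg/kg 20 were higher (51.4%) with a median of -0.00047. With each array left out in turn the medians ran from -0.041 to 0.026 at 1 mg/kg, from -0.033 to 0.023 at 10 mg/kg and from -0.066 to 0.054 at 30 mg/kg. At 5 mg/kg they ran from -0.11, without the low-signal array of experiment B, to 0.039. At 0.5 mg/kg 36 of 40 members were lower (49.1% of all probe sets), with a median of -0.092 against 0.0041 over all probe sets. Without the low-signal 5 mg/kg array of experiment B, which helps to set the level of that experiment, the median at 0.5 mg/kg was -0.045, and without animal 2 of the 0.5 mg/kg group it was -0.055. It was lowest, at -0.127, without vehicle animal 4 of experiment B. At 50 mg/kg 31 of 40 were higher (51.5% of all probe sets), with a median of 0.066 against 0.0056. The median was 0.013 without animal 4 of that group, 0.027 without vehicle animal 3 of experiment A and 0.035 without the low-signal array of experiment B. It was highest, at 0.0955, without animal 3 of the 50 mg/kg group. In the arrays used, 0.5, 30 and 50 mg/kg were each read in 1 experiment only, from 3 rats. Members read on the same arrays are not independent.

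By subunit, the lean at 50 mg/kg held for both. Of the small subunit 11 of 12 members were higher, with a median of 0.11, and of the large subunit 20 of 28, with a median of 0.049. The probe sets with several symbols split 22 to 12 with a median of 0.041. At 0.5 mg/kg 9 of 12 small and 27 of 28 large subunit members were lower, and of the probe sets with several symbols 25 of 34 were, with a median of -0.086. None of these leans carries a test of its own.

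Rpl6 was among the 2 members of lowest p at 5 of the 6 doses, 50 mg/kg being the exception. The 6 differences come from the same fit and share vehicle rats, and Rpl6 had the lowest SD of the members. They are thus not independent repeats. The difference of Rpl6 from vehicle was -0.15 at 0.5 mg/kg, -0.09 at 1 mg/kg, -0.12 at 5 mg/kg, -0.07 at 10 mg/kg, -0.18 at 30 mg/kg and 0.02 at 50 mg/kg. At 30 mg/kg its interval ran from -0.31 to -0.05, with an unadjusted p of 0.00937 and an adjusted p of 0.385 in limma. In experiment B the 4 vehicle rats read 12.54, 12.49, 12.55 and 12.53, and the 3 rats at 30 mg/kg read 12.29, 12.49 and 12.31. The rats at 0.5 mg/kg read 12.34, 12.46 and 12.38. Rpl6 thus lay lower in the 3 rats at 0.5 mg/kg than in each vehicle rat, while at 30 mg/kg 1 rat reached the lowest vehicle value. In experiment C the vehicle rats read 12.65, 12.65 and 12.56, and those at 5 mg/kg 12.44, 12.42 and 12.43. In experiment A the vehicle rats, at 12.39, 12.44 and 12.58, lay among the dosed ones, at 12.34 to 12.62.

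The other members that the naming rule gives missed the threshold as well. Rpl37a differed from vehicle by 0.71 at 0.5 mg/kg (SE 0.275, limma adjusted p 0.56, interval 0.15 to 1.27). The 3 rats at that dose read 12.86, 12.95 and 11.87, and the 4 vehicle rats of the same experiment 11.61, 12.18, 11.63 and 11.52, so the groups overlapped. Rps9, which lies near the mRNA entry of the small subunit, differed by -0.09 at 1 mg/kg (SE 0.0645, limma adjusted p 1). Rps29, a zinc-binding protein of the small subunit, differed by -0.24 at 5 mg/kg (SE 0.117, limma adjusted p 1). Rps9 read -0.041 without vehicle animal 1 of experiment C. Rps29 read -0.407 without the low-signal 5 mg/kg array of experiment B and -0.153 without 5 mg/kg animal 4 of experiment C. Both turned sign once experiment C was left out, at 0.041 and 0.148, the latter from the low-signal array alone, the 1 rat then left at 5 mg/kg. Rpl4, part of the tunnel wall, differed by 0.08 at 10 mg/kg, and Rpl5, which carries the 5S RNA into the ribosome together with Rpl11, by -0.13 at 30 mg/kg (-0.07 without animal 4 of that group).

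At the highest dose, 50 mg/kg, the lowest p values belonged to Rps6 and Rpl39. Rps6 is the small subunit protein that the S6 kinases phosphorylate. It differed from vehicle by 0.16 (SE 0.0903, limma adjusted p 0.697), with 12.57, 12.64 and 12.87 in the dosed rats of experiment A and 12.54, 12.35 and 12.61 in its vehicle rats, which overlap. Without animal 4 at 50 mg/kg the difference was 0.069. Rpl39 differed by 0.17 (SE 0.102, limma adjusted p 0.703). Over the trend with dose 30 of 40 members had a positive slope (52.7% of all probe sets). Rpl27 (0.03 log2 per doubling of dose + 1, SE 0.0143, limma adjusted p 0.595) and Rpsa (0.02, SE 0.0112, limma adjusted p 0.605) came first. Rplp0, the base of the stalk that binds translation factors and a common reference gene, differed by -0.12, -0.08, 0.04, -0.03, -0.09 and 0.05 at the 6 doses from lowest to highest. Rpl22, an RNA-binding protein of the large subunit, read 10.66 to 11.51 over the 39 arrays.

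Lists of members by place and use gave 0 calls at each dose, as follows from the count above. The measured members were 4 of 7 genes of the small subunit's entry, decoding and exit sites, 1 of 3 of the stalk, 2 of 2 of the 5S particle, 6 of 8 of the tunnel exit, 5 of 10 Diamond-Blackfan anaemia genes, whose loss impairs red cell formation, and 4 of 6 common reference genes. The 3 genes whose ribosomal protein is made as a ubiquitin-type fusion were not measured by a probe set tested here. The median differences at 50 mg/kg were 0.067 for the small subunit sites, 0.03 for the 5S particle, -0.028 for the tunnel exit, 0.047 for the Diamond-Blackfan genes and 0.06 for the reference genes.

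The picture within each experiment differed from the pooled one. When each dose group was set against the vehicle rats of its own experiment, members of experiment A tended to read higher than vehicle, members of experiment C lower, and 0 of 40 passed the adjusted threshold in any of the 9 comparisons (limma). The share of all probe sets called was 0.036% at 50 and 0.009% at 10 mg/kg of experiment A, 0.018% at 5 mg/kg of experiment B and 0% elsewhere. The 3 doses of an experiment share its vehicle rats, so their medians are not independent of each other. In the pooled model the opposite leans of experiments A and C at 1 and 10 mg/kg offset each other. At 5 mg/kg those of experiment C and of the single, low-signal array of experiment B did so.

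In experiment A, 33 of 40 members were higher at 1 mg/kg (49.3% of all probe sets), with a median difference of 0.058, and 0 had an unadjusted p under 0.05 (3.21% of all probe sets). At 10 mg/kg 32 were higher (50.4%), with a median of 0.061 and 1 member under 0.05 (2.89%). At 50 mg/kg 35 were higher (51.6%), with a median of 0.13 and 1 member under 0.05 (9.56%). Vehicle animal 3 of this experiment was the lowest of its group, with 3 of 40 members above their mean. Without it the medians were 0.0053 (1 mg/kg) and 0.017 (10 mg/kg). For 50 mg/kg the lowest median with any 1 array left out was 0.068, without animal 4 of that group, and it was 0.069 without vehicle animal 3. All dosed rats lay above all vehicle rats for 4 members at 1 mg/kg (4.79% of all probe sets), for 0 at 10 mg/kg (2.12%) and for 5 at 50 mg/kg (8.35%), and all lay below for 0 members at each of these doses (5.79%, 1.62% and 8.92%).

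Markers of cell types and regions also stood apart from the vehicle rats in experiment A. At 50 mg/kg 4 of 5 measured hypothalamic peptide genes were higher, with a median difference of 2.43, of which 1 passed the adjusted threshold and 4 had an unadjusted p under 0.05. Of the striatum markers 11 of 11 were higher (median 1.00), of the oligodendrocyte and myelin markers 10 of 10 (0.17) and of the astrocyte markers 9 of 11 (0.19, 4 with an unadjusted p under 0.05), with 0 called in these lists. At 1 mg/kg 11 of 11 striatum markers were higher (0.62), and at 10 mg/kg 10 of 10 oligodendrocyte and myelin markers (0.27). Their part in the lean of the ribosomal genes was not tested.

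In experiment C, 39 of 40 members were lower at 1 mg/kg, with a median difference of -0.14. At 5 mg/kg 39 were lower, with a median of -0.19, and at 10 mg/kg 37 were, with a median of -0.15. Over all probe sets 51%, 49.5% and 49.5% were lower. The members with an unadjusted p under 0.05 numbered 9 at 1 mg/kg (6.69% of all probe sets), 16 at 5 mg/kg (6.52%) and 7 at 10 mg/kg (6.63%). The lowest adjusted p of a member was 0.559, 0.575 and 0.553 (limma). All dosed rats lay below all vehicle rats for 8 members at 1 mg/kg (2.21% of all probe sets), 22 at 5 mg/kg (5.6%) and 4 at 10 mg/kg (2.98%). They lay above the vehicle rats for 0 members at these doses (2.43%, 5.91% and 2.97%). Of the probe sets with several symbols 32, 33 and 31 of 34 were lower at 1, 5 and 10 mg/kg, with medians of -0.13, -0.2 and -0.14.

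Rpl13a, a large subunit protein that is released to silence certain inflammatory mRNAs and a common reference gene, led at each dose of experiment C. The vehicle rats read 11.74, 12.00 and 12.01. The rats at 1 mg/kg read 11.65, 11.82, 11.37 and 11.31, those at 5 mg/kg 11.65, 11.46 and 11.30, and those at 10 mg/kg 11.46, 11.85, 11.34 and 11.59. At 5 mg/kg no dosed rat reached a vehicle rat, and at the other doses 1 rat did. The differences were -0.38 (SE 0.114), -0.45 (SE 0.122) and -0.36 (SE 0.114), with limma adjusted p of 0.559, 0.575 and 0.553. In experiment A the vehicle rats, at 11.66, 11.56 and 11.44, lay below the rats at 1 mg/kg, at 11.70 to 11.74.

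Among small subunit proteins of low p in experiment C the group order differed by gene. Rps29 read 13.59, 13.51 and 13.70 in vehicle rats and 13.34, 13.03 and 12.94 at 5 mg/kg, a difference of -0.50 (SE 0.142, limma adjusted p 0.575) with no overlap, while at 1 mg/kg 1 rat read 13.82, above the vehicle rats. Rps9 read 12.25, 12.00 and 12.00 in vehicle rats and 11.85, 11.92, 11.83 and 11.68 at 1 mg/kg, a difference of -0.26 (SE 0.0796, limma adjusted p 0.559) with no overlap, while at 10 mg/kg 2 rats read 12.11 and 12.10, within the vehicle range. Rps23, which lies at the decoding centre and helps to keep it accurate, read 13.34, 13.31 and 13.34 in vehicle rats and 12.89, 13.21, 12.79 and 13.21 at 10 mg/kg, a difference of -0.30 (SE 0.102, limma adjusted p 0.553) with no overlap, while at 1 mg/kg 1 rat read 13.36, above the vehicle rats. Rps28 spread more widely among the dosed rats than among the vehicle rats. It read 10.88 in 1 mg/kg animal 4, 10.89 in 5 mg/kg animal 4 and 10.85 in 10 mg/kg animal 3, and 11.24 to 11.78 in the other dosed rats of the experiment, against 11.55, 11.66 and 11.68 in vehicle rats.

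**Figure D2:**
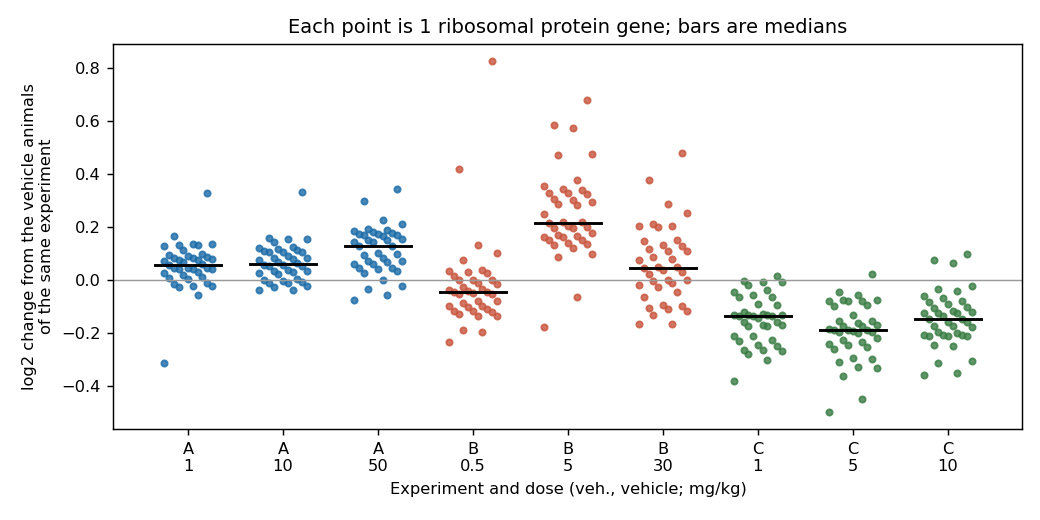
Difference of each of the 40 tested members from the vehicle rats of its own experiment (log2, vertical axis), 1 point per gene, for the 9 dose groups (horizontal axis, experiment and mg/kg), with a bar at the median. Medians lie at 0.058, 0.061 and 0.13 in experiment A and at -0.14, -0.19 and -0.15 in experiment C, and the 5 mg/kg group of experiment B is 1 array.

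In experiment B the doses did not lean one way. At 0.5 mg/kg 29 of 40 members were lower (49.2% of all probe sets), with a median of -0.045 (-0.0057 without animal 2 of that group) and 3 members at an unadjusted p under 0.05 (6.68% of all probe sets). At 30 mg/kg 25 were higher (51.4%), with a median of 0.047 and 5 members under 0.05 (10.2%), and without animal 3 of that group the median was -0.012. All dosed rats lay below all vehicle rats for 5 members at 0.5 mg/kg (3.9%) and for 0 at 30 mg/kg (4.7%), and above them for 1 (4.41%) and 4 (6.05%). The 1 rat at 5 mg/kg had 38 of 40 members higher (51.4%), with a median of 0.22 and 10 members under 0.05 (7.21%), on the assumption that it varies like the other groups. It is also the array of low signal named above. Rps15 read 11.25, 11.35, 11.33 and 11.54 in the vehicle rats of experiment B, 11.60, 11.85 and 11.93 at 0.5 mg/kg and 11.61, 12.05 and 11.58 at 30 mg/kg. The differences were 0.42 (SE 0.166, limma adjusted p 0.632) and 0.38 (SE 0.166, limma adjusted p 0.432), with no overlap at either dose.

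The opposite leans of experiments A and C were set against each other directly at the 2 doses they share. The difference of the 1 mg/kg effect, C minus A, was lower in 38 of 40 members (50.8% of all probe sets), with a median of -0.22, and 0 passed the adjusted threshold (0%). At an unadjusted p under 0.05 there were 5 members (7.35%). At 10 mg/kg it was lower in 36 of 40 (50.2%), with a median of -0.23, and 0 passed (0%), while 8 had an unadjusted p under 0.05 (6.62%). Rpl13a had -0.55 at 1 mg/kg (SE 0.166, limma adjusted p 0.488) and -0.39 at 10 mg/kg (limma adjusted p 0.709). Of the probe sets with several symbols 34 of 34 and 32 of 34 were lower. No single member thus carried a difference past the threshold, and the lean over the members has no test of its own.

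The size of the lean in experiment C rests in part on a few arrays. This is seen in the median deviation of the 40 members from their means over the arrays. It was 0.077 to 0.11 in the 3 vehicle rats of experiment C, with 25 to 34 members above their mean, the highest mean of the 12 groups other than the single 5 mg/kg rat of experiment B (0.0897 ± 0.0198, SD, n = 3). At 1 mg/kg the 4 rats read 0.059, 0.037, -0.056 and -0.3. At 5 mg/kg the 3 rats read -0.057, -0.034 and -0.18. At 10 mg/kg the 4 rats read -0.097, 0.083, -0.25 and 0.019. In each dosed group 1 rat thus lay well below the others, and the pooled SD within groups over the 12 groups was 0.0946. Without the lowest rat the median difference was -0.075 at 1 mg/kg, -0.14 at 5 mg/kg and -0.084 at 10 mg/kg, so the sign held and the size at 1 and 10 mg/kg was lower by more than 1.5 times.

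**Figure D3:**
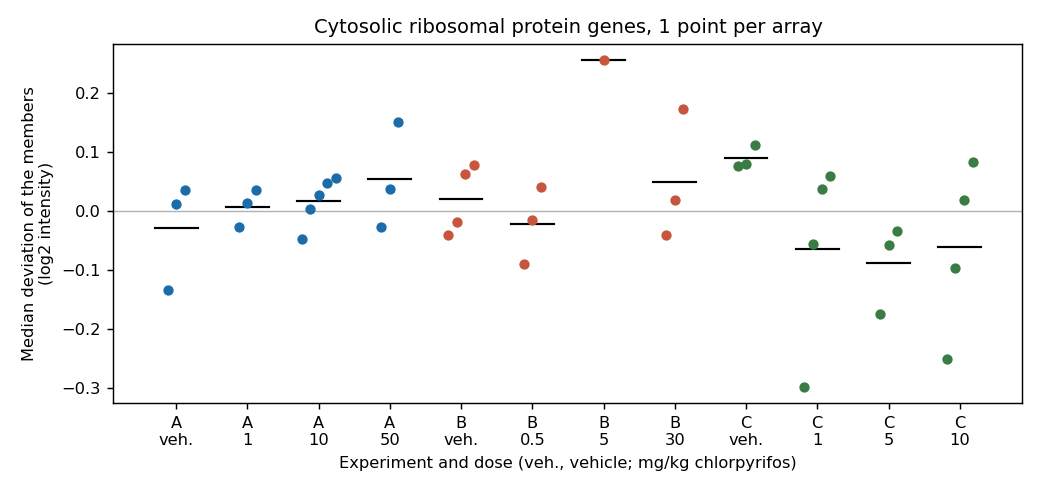
Median deviation of the 40 tested members from their means over the 39 arrays (log2 intensity, vertical axis), 1 point per array, by experiment and dose in mg/kg (horizontal axis). The 3 vehicle rats of experiment C lie at 0.077 to 0.11, and the 3 lowest points, at -0.3, -0.25 and -0.18, are dosed rats of experiment C.

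Other measures also stood apart in these groups. The oligodendrocyte and myelin markers (10 of 14 measured) were lower in 10 of 10 at each dose of experiment C, with median differences of -0.31, -0.29 and -0.48 at 1, 5 and 10 mg/kg and 3, 0 and 7 of them at an unadjusted p under 0.05. In size these medians exceed those of the ribosomal genes at the same doses. In the 10 mg/kg difference between experiments, C minus A, 10 of 10 were lower, with a median of -0.77 and 9 at an unadjusted p under 0.05. The neuron markers (14 of 15 measured; median deviation per array) read -0.253 to -0.144 in the vehicle rats of experiment C, -0.175 to 0.13 at 1 mg/kg, -0.04 to 0.045 at 5 mg/kg and -0.084 to 0.117 at 10 mg/kg. The striatum markers (11 of 14 measured) read 0.196 to 1.609 in the vehicle rats and -0.762 to 1.215 over the 3 dosed groups, with 11 of 11 lower at each dose (median differences -0.90, -0.72 and -1.02). The endothelium markers (11 of 13 measured) read -0.115 to -0.013 in the vehicle rats, -0.021 to 0.152 at 1 mg/kg, -0.204 to 0.348 at 5 mg/kg and 0.099 to 0.125 at 10 mg/kg, so only the last did not overlap the vehicle rats. No gene of these 4 lists was called at a dose of experiment C. Of the meninges and fibroblast markers 8, 10 and 10 of 12 were higher at 1, 5 and 10 mg/kg. Of the choroid plexus markers 4, 6 and 2 of 6 were. In the 5 mg/kg rat of experiment B the neuron markers read -0.244, the endothelium markers 0.355 and the microglia markers (11 of 13 measured) 0.452. The part of these values in the ribosomal differences was not tested. With the beta-actin ratio as a covariate the medians of experiment C were -0.16, -0.19 and -0.15, and with median scaling in place of quantile normalization they were -0.068, -0.19 and -0.093.

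The members followed each other from array to array within groups. After group means were removed, the median pairwise correlation over the 39 arrays was 0.461 among the 40 members (780 pairs, 95.5% above 0). It was -0.0019 among all probe sets tested (49.7% above 0) and -0.0072 among the 484 probe sets of like brightness. The pairs share their arrays and their normalization, and the values are a description. Rpl34, a large subunit protein, had the highest median r with the other members (0.647), ahead of Rpl19 (0.608), Rps23 (0.607), Rps24 (0.599), Rpl12 (0.598) and Rps28 (0.593). The closest partners were Rpl23 and Rpl27a (r = 0.913), Rps23 and Rps28 (0.885) and Rpl12 and Rpl19 (0.847).

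A few members stood outside this shared movement. Rpl7l1 had a median r of -0.013 with the others, Rpl3, which lies at the peptidyl transferase centre, 0.173, Rpl4 0.263, Rpl39 0.281, Rpl5 0.315, Rpl37a 0.325, Rpsa 0.33 and Rps6 0.354. Among these, Rpl3 and Rpl4 were most like each other (r = 0.667), Rpsa was most like Rplp0 (0.711), and Rpl5 was most like Rps3a (0.683). Several of them code for the longer ribosomal proteins, which gave a split chosen after these values were seen: 11 members of longer proteins (Rpl3, Rpl4, Rpl5, Rpl6, Rpl7, Rpl7a, Rplp0, Rpsa, Rps3, Rps3a and Rps6) and 28 of shorter ones, with Rpl7l1 left out.

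The median r was 0.489 within the longer set (55 pairs), 0.596 within the shorter set (378 pairs) and 0.315 between them (308 pairs). The split was drawn from the members that followed the others least, so a lower r between the sets is partly built in. The arrays where the sets parted most were of experiment C. In 5 mg/kg animal 4 the median deviation was 0.04 for the longer and -0.353 for the shorter set, in 1 mg/kg animal 4 -0.065 and -0.383, and in 10 mg/kg animal 3 -0.101 and -0.303. In these 3 rats the shorter set lay lower than the longer set. The longer set was low as well in the 1 and 10 mg/kg rats, with 1 of 11 members above its mean in each. In the 5 mg/kg rat 6 of 11 were above. In 1 mg/kg animal 1, the array with the beta-actin ratio of 4.72, the order was the other way round, at -0.14 for the longer and 0.116 for the shorter set. The beta-actin ratios of the former 3 arrays were 1.23, 1.24 and 1.40, and the part of RNA length in this split was not tested. In the 5 mg/kg rat and 30 mg/kg animal 3 of experiment B the sets moved alike, at 0.226 and 0.288 in the former and 0.176 and 0.177 in the latter.

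**Figure D4:**
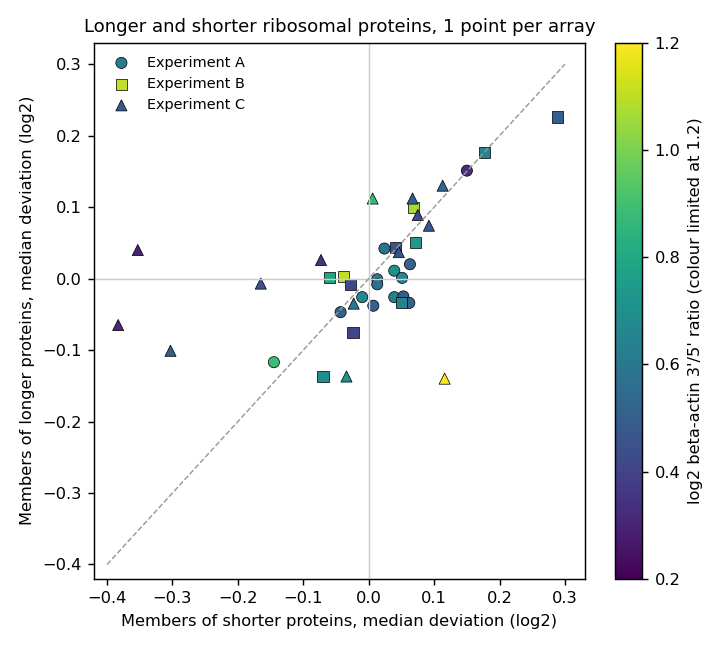
Median deviation of the 11 members of longer proteins (log2, vertical axis) against that of the 28 members of shorter proteins (log2, horizontal axis), 1 point per array, with the shape for the experiment, the colour for the log2 beta-actin 3′/5′ ratio and a dashed line of equality. The points far left of the line are animal 4 at 5 mg/kg, animal 4 at 1 mg/kg and animal 3 at 10 mg/kg in experiment C, with -0.353, -0.383 and -0.303 for the shorter set, and the point far right of it is 1 mg/kg animal 1, with a beta-actin ratio of 4.72.

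Differences past the threshold were found between rats that received no agent, in members about as often as in all probe sets tested. Over the vehicle groups of the 3 experiments, 3 of 40 members differed in the moderated F test (limma, 7.8% of all probe sets called), and 13 had an unadjusted p under 0.05 (22.6% of all probe sets). The 3 called were Rpl37a (adjusted p 0.00253), Rpl11 (0.00997) and Rpl18 (0.0302). Between experiments C and B 4 members were higher in C and 0 lower (10.3% of all probe sets called), between C and A 1 was higher (1.59%), and between B and A 0 members were called (0.117%). At an unadjusted p under 0.05 there were 14 members for C against B (25.3% of all probe sets), 14 for C against A (17.7%) and 3 for B against A (8.71%). Of 40 members 27 were higher in C than in B (54.3% of all probe sets), with a median of 0.089, 30 were higher in C than in A (51.7%), with a median of 0.14, and 29 were higher in B than in A (45.6%), with a median of 0.078. Over all probe sets the medians were 0.029, 0.01 and -0.017. The vehicle groups differed at many other probe sets as well, and whether the members differed more than those has no test here.

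Rpl37a showed the largest difference between vehicle groups. It read 12.12, 11.98 and 13.06 in experiment A, 11.61, 12.18, 11.63 and 11.52 in experiment B and 13.43, 13.55 and 12.93 in experiment C. Rpl37a was thus higher in each vehicle rat of C than in each of B, while 1 rat of A lay within the range of C. It was higher in C than in B by 1.57 (SE 0.276, 2.96-fold, limma adjusted p 0.000656), and C minus A was 0.91 (limma adjusted p 0.0958). Dosed and vehicle rats alike read 12.76 to 13.55 in experiment C, 11.98 to 13.41 in A and 11.52 to 12.95 in B.

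Rpl11, which with Rpl5 binds MDM2 and restrains it when ribosome assembly fails, read 11.92, 11.79 and 11.83 in the vehicle rats of A, 11.47, 11.72, 11.61 and 11.52 in those of B and 11.86, 12.03 and 11.93 in those of C. It was higher in C than in B by 0.36 (SE 0.081, 1.28-fold, limma adjusted p 0.00487), with no overlap. The dosed rats of experiment B at 5 and 30 mg/kg read 12.05 and 11.76, 11.92 and 11.81, above the vehicle rats of B and near those of A and C. The difference at 30 mg/kg was 0.25 (limma adjusted p 0.273).

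Rpl18, a large subunit protein, read 11.05, 10.89 and 11.12 in the vehicle rats of A, 11.08, 11.10, 11.31 and 11.01 in those of B and 11.36, 11.43 and 11.46 in those of C. It was higher in C than in A by 0.40 (SE 0.104, 1.32-fold, limma adjusted p 0.0413). Rps6 read 12.70, 12.72 and 12.80 in vehicle rats of C and 12.49, 12.57, 12.47 and 12.32 in those of B, higher in C by 0.28 (SE 0.0844, 1.21-fold, limma adjusted p 0.0328). Rps16, which lies near the decoding site, read 12.96, 13.05 and 12.86 in C and 12.54, 12.78, 12.66 and 12.59 in B, higher in C by 0.31 (SE 0.101, 1.24-fold, limma adjusted p 0.0441). None of the 3 overlapped between the groups named.

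These calls differ in how firmly they stand. The calls of Rpl37a and Rpl11 between C and B held with each array left out in turn (adjusted p 0.000351 to 0.00547 and 0.00252 to 0.0355, limma). The call of Rpl11 over the 3 vehicle groups was lost without vehicle animal 1 of B (adjusted p 0.0507) and with median scaling alone (0.102). That of Rpl18 between C and A was lost without any 1 of the vehicle rats of A or C (adjusted p up to 0.168), and its call over the 3 groups without vehicle animal 3 of A (0.0762), vehicle animal 1 of B (0.0505) or vehicle animal 1, 2 or 3 of C (0.0603, 0.0948 and 0.136). Those of Rps6 and Rps16 were lost without vehicle animal 1, 3 or 4 of B or any 1 vehicle rat of C (adjusted p up to 0.142 and 0.161). The beta-actin ratio was 1.66 to 2.15 in the vehicle rats of B and 1.39 to 1.44 in those of C. Cell type and region markers differed between the vehicle groups as well. For C against A 14 of 14 neuron markers were lower (median -0.22, 2 called), 11 of 11 striatum markers higher (1.37, 0 called, 7 at an unadjusted p under 0.05) and 10 of 10 oligodendrocyte and myelin markers higher (0.48, 0 called, 7 at an unadjusted p under 0.05). For C against B 11 of 14 neuron markers were lower (-0.16, 2 called), 10 of 11 striatum markers higher (0.74, 0 called) and 9 of 10 oligodendrocyte and myelin markers higher (0.33, 1 called). Their part in the ribosomal differences was not tested. Experiment and any difference in animals, dissection or array handling between experiments cannot be told apart.

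**Figure D5:**
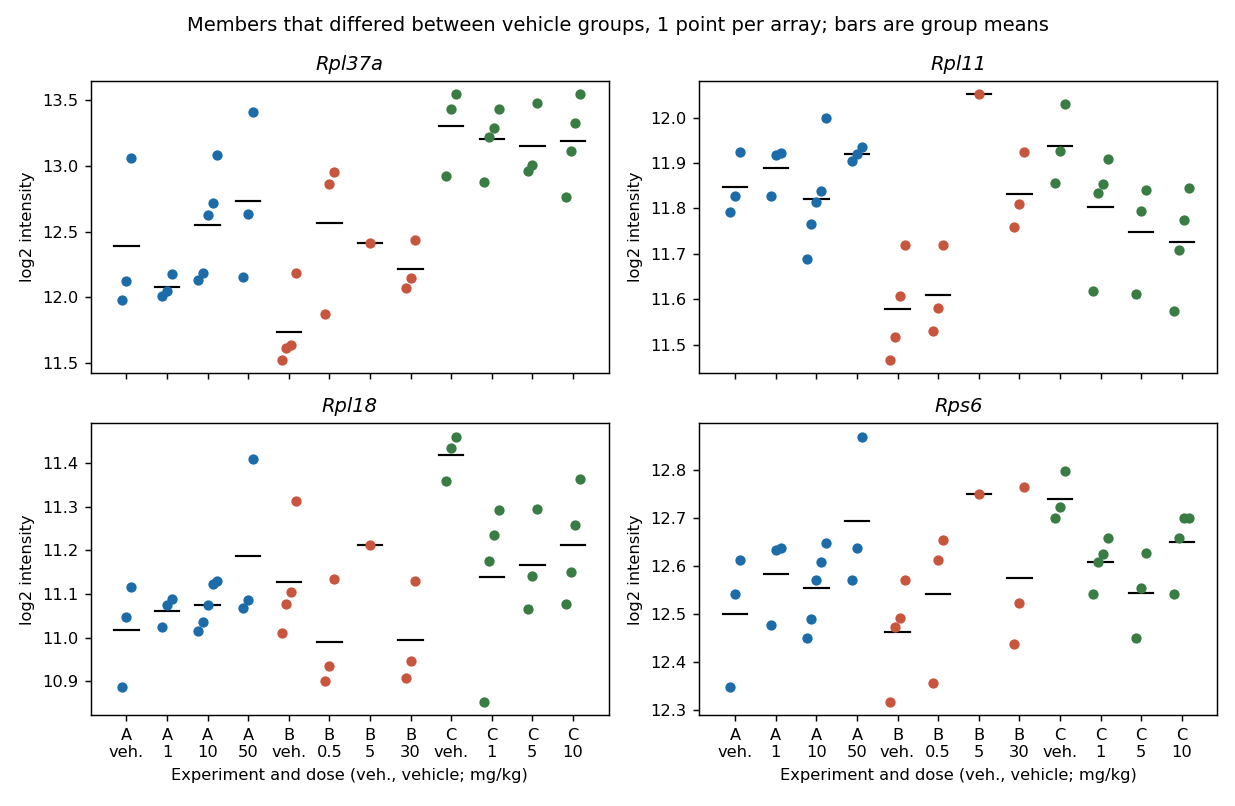
Log2 intensity (vertical axis) of Rpl37a, Rpl11, Rpl18 and Rps6 in each of the 39 arrays by experiment and dose in mg/kg (horizontal axis), with 1 point per array and a bar at the group mean. Rpl37a lies at 12.76 to 13.55 in all groups of experiment C, whereas the vehicle rats of experiment B, at 11.52 to 12.18, lie lowest.

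Genes that work with the ribosome gave the background to these values. Of 20 translation factors and other genes whose mRNAs carry a TOP tract, 12 were measured, of 26 ribosome biogenesis genes 21, and of 20 genes of the mTOR and S6 kinase pathway 15. In each of these lists 0 genes passed the adjusted threshold at any dose (limma). At an unadjusted p under 0.05 there were 1, 2 and 1 of them at 50 mg/kg (7.99% of all probe sets). At 30 mg/kg there were 1, 4 and 3 (9.25%). At 50 mg/kg 11 of the 12 translation genes were higher, with a median of 0.089. In experiment C 9 of 12 were lower at 1 mg/kg (median -0.11), 10 of 12 at 5 mg/kg (-0.08) and 5 of 12 at 10 mg/kg (0.016).

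The translation genes with the lowest p were Hnrnpa1, an RNA-binding protein, with 0.51 (limma adjusted p 0.226) and the ribosome-bound scaffold Rack1 with 0.20 (limma adjusted p 0.643) at 50 mg/kg, and the initiation factor subunits Eif3f with 0.32 (limma adjusted p 0.248) and Eif3h with -0.14 (limma adjusted p 0.673) at 30 mg/kg. Among biogenesis genes they were Rrp9, which binds the U3 nucleolar RNA, with 0.42 and Tsr1, a factor of small subunit maturation, with 0.35 at 30 mg/kg, and the nucleolar protein Nifk with 0.31 and the RNA polymerase subunit Polr1c with 0.22 at 50 mg/kg (limma adjusted p 0.397 to 0.54).

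Between the vehicle groups of C and B, 2 translation genes, 5 biogenesis genes and 1 gene of the mTOR and S6 kinase list were called, of 12, 21 and 15 measured (10.3% of all probe sets called), and they are named here after their values were seen. Hnrnpa1 was higher in C by 0.44, and Eef1a1, the elongation factor that brings tRNA to the ribosome, lower by -0.30. Of the biogenesis genes Bysl (0.55), Tsr1 (0.47), Imp3 (0.41) and Nolc1 (0.26) were higher in C, and Ncl, the gene of nucleolin, was lower (-0.43). Rps6ka2, an S6 kinase of the RSK family, was higher by 0.79. Their adjusted p lay between 0.0112 and 0.0487 (limma).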

How the data were processed

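Total RNA of frontal lobe was extracted with Qiagen columns, and 15 ug was labelled with biotin by an Enzo procedure, per the labels. The deposited table holds linear signal intensity per probe set for 46 arrays and 15923 probe sets, of which 57 are controls. The sources used here do not name the software that summarized the probes. The 39 arrays used have a median log2 correlation of 0.5 or more with the others (pairwise 0.9351 to 0.9792), and 7 arrays were left out. Arrays were scaled to equal medians (112.3 to 286.2 before scaling), floored at the 5th percentile (intensity 11), put on the log2 scale and then quantile normalized. Probe sets under the 30th percentile of the mean were left out. Symbols come from the platform table, where 12783 probe sets carry 1 symbol, 312 several and 2771 none.

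All probe sets were fitted in limma 3.58.1 (R 4.3.3, lmFit and eBayes with trend), with experiment and dose as terms, or with group means for contrasts within and between experiments. Tests are two-sided, adjusted by Benjamini-Hochberg over the 11106 probe sets, at 0.05. The p-values measure the spread between these arrays, which the animal numbers of the labels give as separate rats, and precision is limited by how many arrays there are. The fit was tested on simulated data. The named members are, for each dose and the trend, the 2 of lowest p, the 3 of lowest p over the vehicle groups, the 3 of highest and lowest SD, a short list of well-known members, and those called; other lists are given as counts with 2 examples each at 30 and 50 mg/kg. Members named beyond it lead a comparison within an experiment or the likeness over arrays. The members, lists and tests were chosen with earlier results of these data known, and no list carries a test of its own. Alternatives were the scaling, the filter, the floor, the prior, the probe set rule, the actin ratio, the arrays of the first repeat, the animal number as a block and each array left out. The plots were made in python 3.11.15 with matplotlib 3.10.9.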

Additional observations from a re-analysis of the deposited data

Results flagged for a closer look

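In 4 groups of a named member, 1 array lay far from the others of its group by Dixon's criterion, of 88 groups tested, where chance gives about 1 in 20. Rpl13a read 11.42 in 10 mg/kg animal 3 of experiment A and 11.58 to 11.64 in the other 4 rats. Rpsa read 12.05 in 10 mg/kg animal 2 of experiment A and 11.82 to 11.88 in the others. Vehicle animal 2 of experiment B stood apart for both Rpl27, at 12.08 against 11.80 to 11.84, and Rpl37a, at 12.18 against 11.52 to 11.63.

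The median deviation of the members at 1 mg/kg, taken from the mean of the vehicle rats of the same experiment, lay above 0 in each rat of experiment A and below 0 in each rat of experiment C, and the difference of the means, C minus A, was -0.19. This difference was not tested as such. That each rat of A lay above 0 rests on vehicle animal 3 of experiment A, at -0.13. The other vehicle rats of A read 0.012 and 0.035, and the rats at 1 mg/kg 0.014, -0.028 and 0.035. Without that animal the rats of A at 1 mg/kg do not all lie above the vehicle mean.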

How the results depend on the processing

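The count of members called at each dose, for the trend, for any dose, within each experiment and for the difference between experiments A and C was 0 under each alternative run. The animal number as a replicate block gave 0 as well, with a median difference of 0.075 at 50 mg/kg. Rats of the same number did not deviate together on the median (r -0.0046, -0.014 and 0.02 over 16, 10 and 18 pairs in experiments A, B and C). No pairing by number was thus seen, and so few pairs cannot exclude it. With the block the vehicle groups could not be compared. Between vehicle rats of C and A, 0 members were called with median scaling alone, without the intensity trend in the prior and without the first-repeat arrays, and 3 with the actin ratio as a covariate or without the arrays of highest actin ratio and lowest signal (an alternative chosen after seeing the data); with each array left out the count was 0 to 3. Between C and B, 2 were called with cyclic loess, without the trend and without the first-repeat arrays, 7 without those 2 arrays, and 2 to 7 with each array left out. Over the 3 vehicle groups 5 were called with the actin ratio, and 1 to 5 with each array left out. The median at 5 mg/kg was -0.105 without those 2 arrays, 0.218 without experiment C (also chosen after seeing the data, and resting on 1 rat, the low-signal array of experiment B) and -0.109 to 0.0389 with each array left out. Without experiment C, Rps9 at 1 mg/kg read 0.041 and Rps29 at 5 mg/kg, from the same 1 rat, 0.148. The causes were not tested. Signal near the floor limits what can be said of Rps27l, Rpl30, Rps4y2 and Rpl3l.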
